A study of Mus musculus with 3 samples.

Results

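The unplaced and unlocalised contigs of the mouse genome build mm9 carried 0.779% ± 0.281 (SD, n = 3 litters) of the alignments in RNA libraries from ovulated oocytes. They are the sequences whose name ends in _random, with chrX_random and chrY_random left out. There are 9 of them, and they hold 10345 of the 2725738 windows of 1 kb in the files. The 3 libraries, 1 per litter, form a single group. The oocytes came from superovulated females of mixed strain that were LSD1 FL/FL and ZP3::Cre negative, and were collected by E0.5. LSD1 is the histone demethylase Kdm1a, and ZP3::Cre acts in growing oocytes, so these floxed females carry no driver to recombine the gene. RNA was amplified by single primer isothermal amplification before the libraries were built. Neither the age of the females nor the number of oocytes per library is given in the labels, and in bulk RNA fewer cells and less RNA per cell cannot be told apart.

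A contig named for a chromosome, such as chr7_random, joins clones that were assigned to that chromosome but not ordered on it, and chrUn_random joins clones that were assigned to none. Assembly tends to leave such clones out where a region exists in several near-identical copies, so contigs are often rich in recent segmental duplications and tandem gene families. Where a read aligns equally well to a contig and to the finished chromosome, and the aligner reports it at each place, the depth at those places is the same to the last read. Mouse oocytes are known to transcribe several tandemly duplicated gene families. No annotation of this build was at hand, so the windows are given by mm9 coordinates counted from 1 and not by gene.

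Alignments on the contigs numbered 215350, 197591 and 353635 in litters 1, 2 and 3, out of 35183199, 31787887 and 32028802 in the whole libraries. The contigs' share was 0.612% in litter 1, with Wilson bounds at 95% confidence of 0.610% and 0.615%. It was 0.622% in litter 2, bounded by 0.619% and 0.624%, and 1.10% in litter 3, bounded by 1.10% and 1.11%. The bounds of litter 3 lay above those of both other litters. They cover counting error only and take each alignment as independent. They are therefore too narrow, since copies of 1 amplified molecule are not independent and a read may be counted at several places. Of the contig alignments, 80.4%, 80.8% and 87.4% in litters 1, 2 and 3 repeated a start position already counted in that library, against 85.5%, 85.3% and 84.8% on chromosomes 1 to 19 and X.

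All 9 contigs carried signal in every litter. The level is given as CPM, the alignments per 1000000 in the library. On chrUn_random it was 2233, 2261 and 6021 CPM in litters 1, 2 and 3. Litter 3 thus stood alone there, at 2.68 times the mean of the other litters. Next came chr1_random with 1240, 1264 and 1125 CPM, a spread of 74.3 CPM (SD, n = 3) around a mean of 1210. On chr7_random the values were 399, 329 and 1438 CPM, with litter 3 at 3.96 times the mean of the others. The order was the other way on chr17_random, with 725, 626 and 305 CPM and litter 3 lowest. On chr13_random they were 380, 525 and 515 CPM, and on chr8_random 423, 441 and 373 CPM. The remaining contigs were chr4_random with 282, 373 and 367 CPM, chr5_random with 221, 197 and 492 CPM, and chr9_random with 218, 200 and 404 CPM. Litter 3 was the highest library on 4 of the contigs and the lowest on 3. In every litter chrUn_random stood above chr1_random, and chr1_random above chr13_random, chr8_random, chr4_random, chr5_random and chr9_random. Below chr1_random, neighbours in the order of means overlapped between litters, or touched at 373 CPM in the case of chr8_random and chr4_random.

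**Figure D1:**
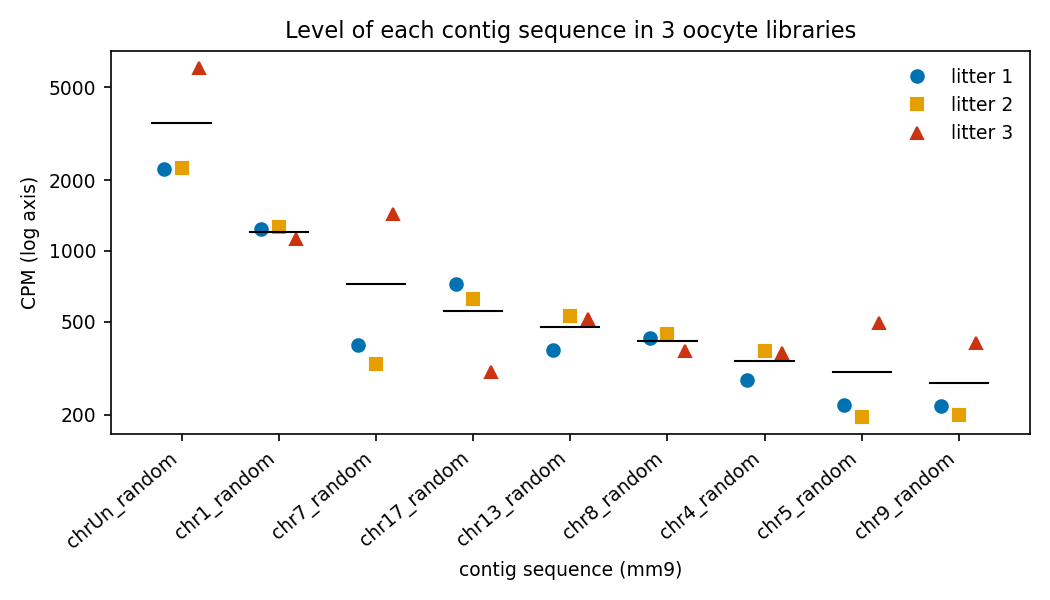
Level of each contig sequence in CPM (log axis) for each of the 3 litters (symbols), with the mean over litters as a black line. Litter 3 stands apart upward on chrUn_random (6021 CPM) and chr7_random (1438 CPM) and downward on chr17_random (305 CPM), while the 3 litters lie between 1125 and 1264 CPM on chr1_random.

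The contigs also differ in length. chrUn_random makes up 57.1% of contig length and held 45.0% of contig signal. chr7_random makes up 3.51% of the length and held 9.26% of the signal. Per megabase, chr4_random had 2121 ± 318 CPM and chr7_random 1992 ± 1714 CPM, against 290 ± 20.1 on chromosome 4 and 311 ± 71.6 on chromosome 7 (SD, n = 3 each). On 7 of the 8 contigs named for a chromosome the density was above that of the chromosome in all 3 litters, and on chr17_random it was in 2 of them. The contigs together had 592, 601 and 1068 CPM per megabase in litters 1, 2 and 3, against 370, 371 and 363 on chromosomes 1 to 19 and X. These densities count a read at every place where it was reported. Each alignment was then divided by its number of places, on contigs and chromosomes alike, where depth was enough to look for copies. Too shallow for that, and left undivided, were 26.3% of contig alignments, against 24.2% on chromosomes 1 to 19 and X (means over litters). By contig the undivided share ran from 7.52% on chr7_random to 46.5% on chr8_random, and its effect was not tested. After this division the density was above that of the chromosome in all 3 litters on 6 of the 8 contigs. It was so in 2 litters on chr5_random and in none on chr17_random, which had 411 ± 144 against 620 ± 120 on chromosome 17 (SD, n = 3 each). That division left chr4_random at 713 ± 165 CPM per megabase, against 260 ± 17.6 on chromosome 4. It left the contigs together at 352, 350 and 553 CPM per megabase, against 299, 300 and 304 on chromosomes 1 to 19 and X. An exact sign-flip test over 3 litters, two-sided, cannot go below p = 0.25, so the densities are given as values with no test. How much of the length is unsequenced gap was not tested.

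Signal on the contigs was concentrated in few windows. Of the 10345 windows, 8643 (83.5%) held no alignment in any library, against 88.1% of the windows on chromosomes 1 to 19 and X. On the contigs, 1702 windows held some in at least 1 library, and 793 did in all 3. A level of 1 CPM was reached in every litter by 301 windows, or 2.91%, against 1.25% of the windows on chromosomes 1 to 19 and X and 1.22% of all windows in the files. At 5 CPM the count was 128. By contig, 99 of the 301 windows at 1 CPM lay on chrUn_random (1.68% of its windows) and 87 on chr1_random (7.06%). The rest were 31 on chr8_random, 26 on chr13_random, 18 on chr5_random, 17 on chr9_random, 12 on chr17_random, 7 on chr4_random and 4 on chr7_random. The 301 windows formed 187 stretches, of which 131 were a single window and 26 ran over 3 windows or more. The longest was 10 windows, on chr13_random (114001 to 124000).

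The 10 highest windows by mean CPM held 36.3%, 35.8% and 54.4% of the contig signal in litters 1, 2 and 3, or 42.2% ± 10.6 (SD, n = 3). The 3 highest by mean held 13.7%, 11.9% and 39.2%, but they take those ranks through their level in litter 3. Ranked within each litter, its own 3 highest windows held 20.9%, 18.6% and 39.2% and its own 10 highest 37.4%, 36.2% and 54.5%. By the same ranking, the highest 23, 21 and 8 windows of litters 1, 2 and 3 reached 50% of its contig signal. The share of the highest window was 90.5% on chr7_random, 88.5% on chr17_random and 68.0% on chr4_random. It was 19.3% on chrUn_random and 6.91% on chr1_random, where signal was spread over many windows. The highest 1% of windows held 79.2%, 81.6% and 84.9% of the contig signal, against 91.6%, 91.7% and 91.4% of the signal on chromosomes 1 to 19 and X, so in every litter the share was lower on the contigs. With repeats of a start dropped, the 10 highest held 12.4% of contig signal.

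**Figure D2:**
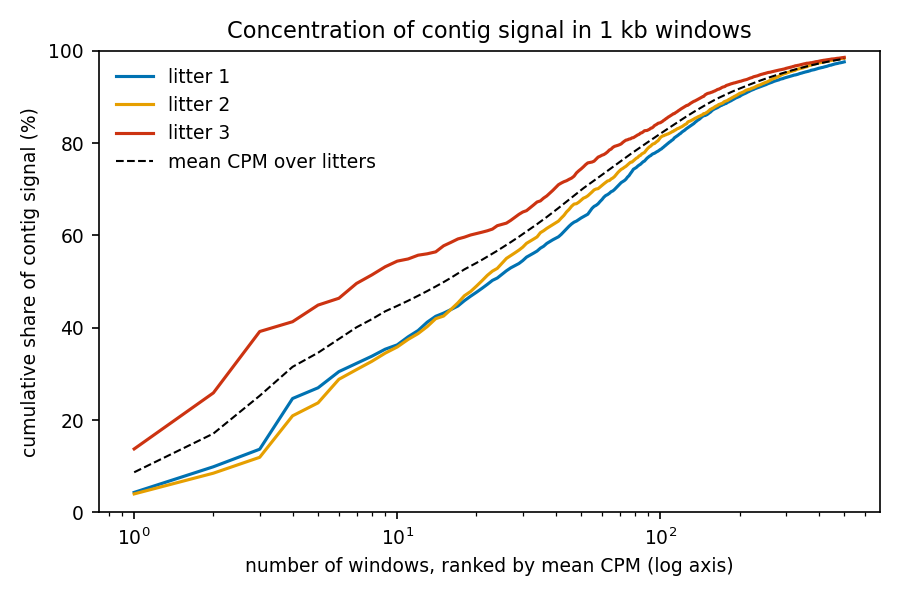
Cumulative share of contig signal (%) against the number of 1 kb windows (log axis), ranked by mean CPM, for each litter and for the mean over litters. The ranks of the first windows rest on their level in litter 3, which reaches 54.4% with 10 windows, against 35.8% to 36.3% with 10 in the other litters.

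By mean CPM, a pair of places on chrUn_random held the most signal. In litters 1 and 2 the window of chr17_random described below was higher than either place, and the order of the means rests on litter 3. The window of rank 1 (1920001 to 1921000) stood at 266, 249 and 1519 CPM in litters 1, 2 and 3, and that of rank 3 (1132001 to 1133000) at 233, 214 and 1468 CPM. Around them, 6 windows (1918001 to 1924000) summed to 504, 535 and 2169 CPM and 5 windows (1129001 to 1134000) to 503, 549 and 2143 CPM. Both stretches had nearly the same level in each litter and were about 4 times as high in litter 3 as in either of the others. Their neighbouring windows take ranks 5, 7, 8 and 9 among all contig windows, at means of 238 ± 139, 198 ± 136, 136 ± 58.4 and 134 ± 55.0 CPM (SD, n = 3 each).

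The second highest window was on chr7_random (266001 to 267000), with 340, 279 and 1340 CPM in litters 1, 2 and 3. The fourth, on chr17_random (22001 to 23000), had 672, 558 and 235 CPM. The sixth, on chr4_random (41001 to 42000), had 215, 317 and 164 CPM. Thus litter 3 was the highest library on the first of these and the lowest on the others. In the tenth, on chr9_random (129001 to 130000), the levels were 57.5, 83.0 and 134 CPM. Ranks 11 to 20 had means between 53.0 and 87.0 CPM, with 3 windows on chrUn_random, 4 on chr1_random, 2 on chr13_random and 1 on chr8_random. Over the 20, litter 3 was highest in 10 and lowest in 8. Several of the 20 are copies of each other in part, as given below, so they do not count separately. Their ranks by mean also rest in part on litter 3.

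**Figure D3:**
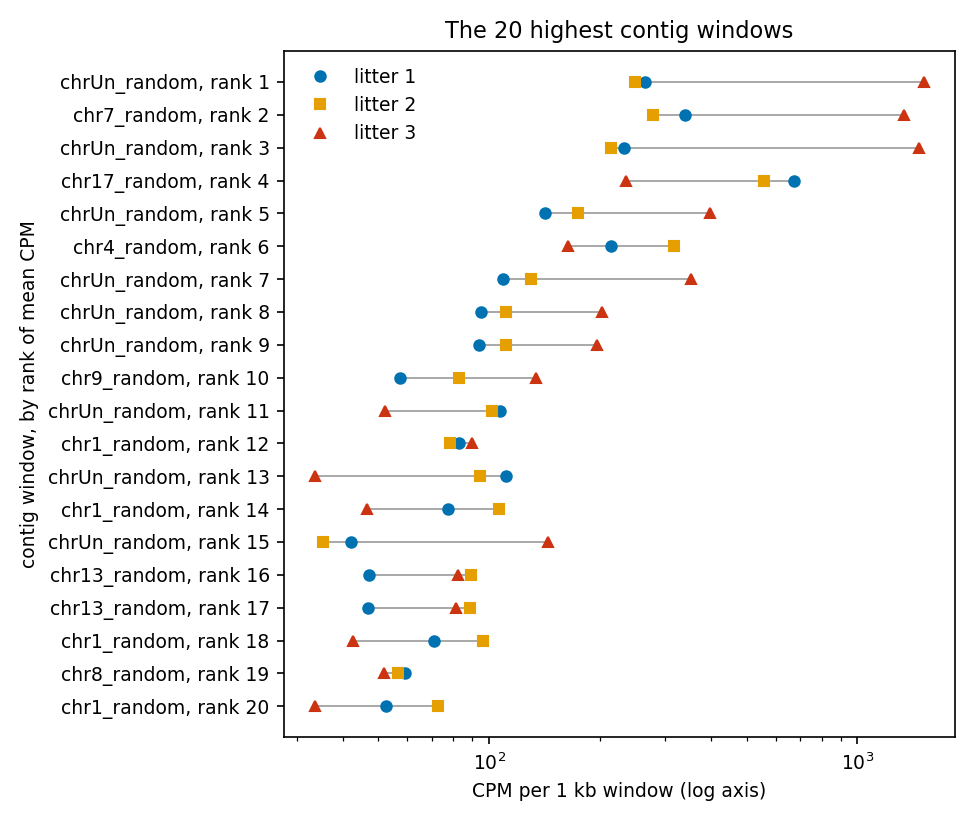
CPM (log axis) of the 20 highest contig windows in each litter (symbols), with a grey line over the range. Litter 3 lies far above the others in the windows ranked 1, 2 and 3 (1340 to 1519 CPM) and below them in the window on chr17_random ranked 4 (235 CPM).

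The next question was how much of this signal is also reported on placed chromosomes, here chromosomes 1 to 19, X, Y and the mitochondrial one. A run of 3 neighbouring start positions was taken to recur when its counts in all 3 litters and its spacing occurred again elsewhere, read in either direction. Only runs with at least 50 alignments over the litters were tested, which took in 71.6%, 72.6% and 76.9% of contig alignments in litters 1, 2 and 3. Of all contig alignments, 49.6%, 48.6% and 61.6% lay in runs that recurred on a placed chromosome (53.3% ± 7.21, SD, n = 3). On chromosomes 1 to 19 and X, 26.9%, 26.8% and 22.8% recurred elsewhere on placed chromosomes. The share on the contigs was thus higher in each litter, by more than its spread between litters. Another 9.24% ± 3.26 of contig alignments recurred on contigs only, 11.2% ± 1.43 were deep enough to test and recurred nowhere, and 26.3% ± 2.78 were too shallow to test (SD, n = 3 each). Of 7946 contig runs tested, 5184 recurred on placed chromosomes and 6470 anywhere. One run occurred at up to 18 places, and the median over recurring contig positions was 4 places.

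The excess in litter 3 lay mostly in the signal that also occurs on placed chromosomes. Alignments in runs that recurred there summed to 3039, 3021 and 6800 CPM in litters 1, 2 and 3. Everything else on the contigs summed to 3082, 3195 and 4242 CPM. Litter 3 stood at 2.24 times the mean of the others in the recurring signal and at 1.35 times in the rest. Within the rest it stood at 1.42 times in signal deep enough to test that recurred nowhere. In signal too shallow to test it stood at 1.49 times. Runs were kept by their sum over the litters, so a high level in litter 3 alone could bring a run into the test. How far this shaped the split was not tested. Signal that recurred on contigs only was 602, 756 and 632 CPM, with litter 3 between the others.

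**Figure D4:**
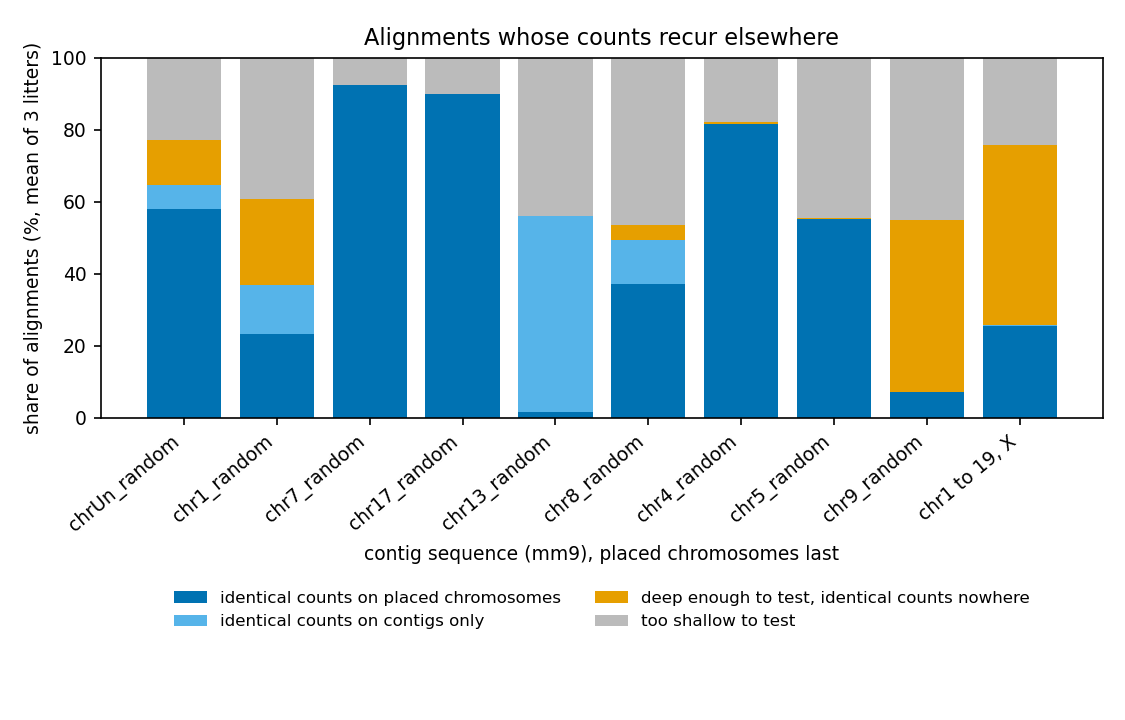
Share of alignments (%, mean of 3 litters) whose counts recur on placed chromosomes, recur on contigs only, are deep enough to test but recur nowhere, or are too shallow to test, for each contig and for chromosomes 1 to 19 and X. The share on placed chromosomes is 92.5% for chr7_random, 89.9% for chr17_random and 81.7% for chr4_random, against 7.21% for chr9_random and 1.57% for chr13_random.

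The contigs fell apart by where their counts recurred. The share of alignments with identical runs on placed chromosomes was 92.5% ± 3.27 on chr7_random, 89.9% ± 5.32 on chr17_random, 81.7% ± 7.60 on chr4_random, 58.0% ± 10.9 on chrUn_random and 55.1% ± 1.95 on chr5_random (SD, n = 3 each). On chr7_random and chr17_random all runs that could be tested recurred there. It was 37.0% ± 4.37 on chr8_random, 23.3% ± 4.76 on chr1_random, 7.21% ± 0.987 on chr9_random and 1.57% ± 1.62 on chr13_random. Over the 8 contigs named for a chromosome, 90.9% ± 2.43 (SD, n = 3) of the alignments that recurred on placed chromosomes had a copy on the chromosome the contig is named for. The exceptions were chr9_random and chr13_random, whose few recurring runs lay on chromosomes 13 and 12, and chr8_random, with 27.8% ± 3.08 of its alignments recurring on chromosome 1 and 9.04% ± 2.04 on chromosome 8.

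**Figure D5:**
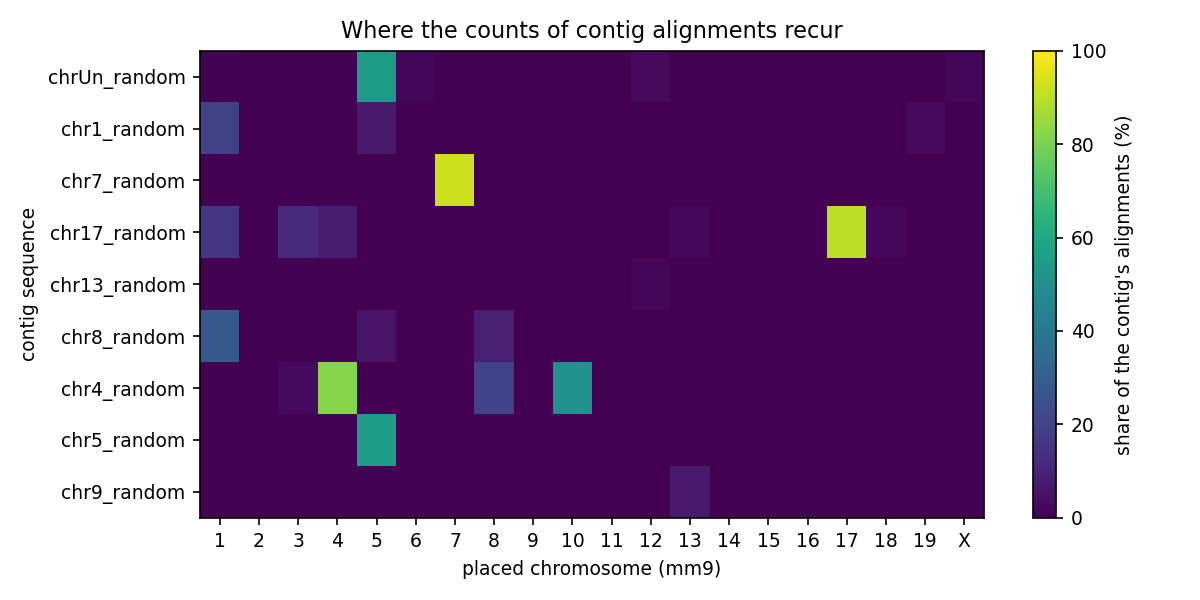
Share (%, mean of 3 litters) of each contig's alignments whose runs recur on each placed chromosome. Rows can sum to over 100, since a run may recur on several chromosomes. chr7_random, chr17_random, chr4_random and chr5_random are brightest on their own chromosome, and chrUn_random on chromosome 5 with 54.4%.

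Most of the recurring signal of chrUn_random lay on chromosome 5. Identical runs there took in 46.3%, 47.6% and 69.2% of the alignments of chrUn_random in litters 1, 2 and 3, while chromosome 12 came next with 2.37% ± 1.33 (SD, n = 3). Identical runs on a placed chromosome with starts up to 1 megabase apart were joined into a locus, so its span depends on that distance. Of the alignments of chrUn_random with copies on chromosome 5, 97.2% ± 0.828 (SD, n = 3) had one in a single 2.32 megabase locus (93911614 to 96233102). On chr5_random the same locus held copies of 100% of the alignments that recurred. It held 5050 runs identical to runs on these contigs. Contig alignments with a copy in this locus summed to 1113, 1154 and 4366 CPM, so litter 3 stood at 3.85 times the mean of the others. The locus accounted for 25.4% ± 12.2 (SD, n = 3) of contig signal. Of the alignments in the high places of chrUn_random, 92.9% at 1918001 to 1924000 and 71.3% at 1129001 to 1134000 had a copy in it. Of the 489 runs in the highest window, 476 occurred again in reversed order on chromosome 5 (95114001 to 95115000), a window that stood at 324, 323 and 1499 CPM itself. Of the same 489 runs, 391 also occurred at 95772001 to 95773000. Of the 409 runs in the window of rank 3, 290 occurred again at 94064001 to 94065000, also reversed. Between both chrUn_random windows 214 runs were shared, in reversed order, so they are copies of each other in part and not separate observations.

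A series of lower stretches had nearly equal levels. On chr5_random the windows 309001 to 313000 summed to 41.4, 38.4 and 86.7 CPM in litters 1, 2 and 3, and those at 340001 to 344000 to 41.5, 40.2 and 86.2 CPM. On chrUn_random the windows 1392001 to 1396000 summed to 41.4, 38.4 and 86.7 CPM, those at 839001 to 843000 to 41.4, 38.3 and 86.7 CPM, and those at 870001 to 874000 to 41.4, 40.2 and 85.8 CPM. These 5 stretches gave the same level within 2 CPM in each litter, and 55.5% to 56.2% of their alignments had copies in the locus on chromosome 5.

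On chr7_random the signal came from 3 windows (265001 to 268000) that summed to 378, 311 and 1394 CPM. All 399 runs of its highest window recurred in the same order on chromosome 7 (15983001 to 15984000), where the level was 340, 279 and 1340 CPM, as on the contig. Of the same 399 runs, 58 also occurred at 16142001 to 16143000. The deepest base of chr7_random had depths of 3663, 2498 and 22857 in litters 1, 2 and 3, and exactly these 3 depths occurred at base 15983598 of chromosome 7.

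On chr17_random all 146 runs of its highest window recurred in reversed order on chromosome 17 (8145001 to 8146000), with 672, 558 and 235 CPM there too. Of these, 41 recurred again at 7146001 to 7147000, 23 on chromosome 1 (192944001 to 192945000) and 20 on chromosome 3 (5860001 to 5861000). The chromosome 3 window stood at 2953, 2399 and 848 CPM, above the contig in every litter and likewise lowest in litter 3. The deepest base of chr17_random in litters 1 and 2, with depths of 16622, 13885 and 6519, was met with the same depths at base 8145250 of chromosome 17. In litter 3 the greatest depth on the contig was 6523.

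On chr4_random, all 324 runs of the highest window recurred in reversed order on chromosome 4 (145633001 to 145634000), and 273 of them at each of 2 other windows there (145319001 to 145320000 and 146191001 to 146192000). The locus on chromosome 4 spans 1.72 megabases (145281798 to 146996944). Part of the same runs also lay on chromosome 10 within 25827776 to 25828306 (50.8% ± 17.6 of the contig's alignments, SD, n = 3). The 3 depths of its base 41630, 2137, 2545 and 1603, occurred at 3 places on chromosome 4. The greatest depths anywhere on the contig were 2161, 2729 and 2560 in litters 1, 2 and 3. A second stretch of the contig (9001 to 14000) had 56.2, 41.4 and 195 CPM, so that litter 3 was highest there and lowest in the main window.

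A family of windows on chr1_random and chr8_random shared counts among themselves. Windows on chr1_random at 990001 to 991000 and 720001 to 721000 had all 84 runs of the first in common, and 82 of them also occurred on chr8_random (23001 to 24000). The first stood at 52.6, 72.8 and 33.6 CPM in litters 1, 2 and 3. Litter 3 was the lowest and litter 2 the highest in this window and in the higher windows of chr1_random at 848001 to 849000 (77.6, 107 and 46.6 CPM) and 1125001 to 1126000 (70.9, 96.0 and 42.8 CPM), which shared 58 runs with each other. Of the 84 runs, 49 were also found on chromosome 1 (85243001 to 85244000) and 15 on chromosome 5 (138161001 to 138162000). The placed locus on chromosome 1 (84981171 to 85329093) matched contig alignments worth 311, 366 and 239 CPM.

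On chr13_random the copies were within the contig. Windows at 308001 to 317000 summed to 149, 213 and 220 CPM in litters 1, 2 and 3, and those at 114001 to 124000 to 150, 213 and 220 CPM. All 88 runs of the window at 309001 to 310000 occurred again, in the same order, at 115001 to 116000. Of the alignments of this contig, 54.5% ± 3.13 (SD, n = 3) recurred on contigs only, against 0% on chr4_random, chr5_random, chr7_random, chr9_random and chr17_random. Its base 115449, at depths of 771, 1536 and 1553, had no equal on a placed chromosome. The greatest depths anywhere on the contig were 772, 1638 and 1700 in litters 1, 2 and 3. Base 848176 of chr1_random, base 23369 of chr8_random and base 129848 of chr9_random had no equal on a placed chromosome either.

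Signal deep enough to test and with identical counts nowhere else lay almost wholly on 3 contigs. It summed to 327, 318 and 567 CPM on chrUn_random in litters 1, 2 and 3, to 283, 309 and 274 CPM on chr1_random and to 108, 88.8 and 200 CPM on chr9_random. As a share of the contig's own alignments it was highest on chr9_random, at 47.8% ± 2.86, and 23.9% ± 0.921 on chr1_random and 12.7% ± 2.88 on chrUn_random (SD, n = 3 each). On chr7_random, chr13_random and chr17_random it was 0. Recurrence asks for exactly equal counts, so a sequence that is only partly shared can count as recurring nowhere. Of the 301 windows at 1 CPM in every litter, 205 held a run deep enough to test. In 28 of these no run recurred anywhere, and in 75 over 50% of alignments did. In 16 windows over 50% of alignments could be tested and under 10% recurred, 10 of them on chr1_random, 4 on chr9_random, 1 on chr8_random and 1 on chrUn_random. The highest of these was on chr1_random (383001 to 384000), with 83.0, 78.2 and 89.6 CPM in litters 1, 2 and 3 and none of its 115 runs found again. The litters thus lay close together there. It belongs to a series of windows within 15 kb, together with 369001 to 370000 (39.0, 40.6 and 56.2 CPM), 374001 to 375000 (26.0, 20.4 and 24.8 CPM) and 377001 to 378000 (23.4, 22.1 and 15.2 CPM). On chrUn_random the window 401001 to 402000 had 111, 94.3 and 33.7 CPM, with 3.13% of alignments recurring, and litter 3 well below the others. On chr9_random the window 146001 to 147000 had 20.5, 4.60 and 48.4 CPM and 150001 to 151000 had 26.5, 2.87 and 22.8 CPM, with litter 2 lowest in both.

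The last comparison was between the litters, window by window. A mean of 10 CPM was reached by 123 contig windows, and 10222 were not tested. Of the 123, 22 (17.9%) differed over 4-fold between the highest and lowest litter and beyond Poisson error after Benjamini-Hochberg adjustment, against 17.4% of all 10916 windows tested in the files. At these thresholds the share was near that of all windows. It moved with the settings, to 67.5% against 54.3% of all windows at a ratio of 2, and to 3.11% against 6.14% with each start counted once. Without litter 3 the count was 2 of 100 tested (2%, against 1.08% of all windows), and without litter 2 it was 11 of 135 (8.15%, against 10.8%). Of the 22, 16 were highest in litter 3 (72.7%, against 49.6% of all called windows), and 17 were lowest in litter 2. Among all 123, 77 were highest in litter 3 (62.6%), against 46.6% of all tested windows, but many of them hold the same reads and do not count separately.

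The ratio of highest to lowest litter was largest on chr4_random (13001 to 14000), 15.0, with 14.3, 5.19 and 77.9 CPM in litters 1, 2 and 3. It was 10.5 on chr9_random (146001 to 147000) and 9.23 on the same contig (150001 to 151000), where litter 1 was highest. Next were chr4_random (10001 to 11000) with 7.57 and chrUn_random with 7.23 (1918001 to 1919000) and 6.86 (1132001 to 1133000), each highest in litter 3 and lowest in litter 2. On chr13_random the copies at 312001 to 313000 and 118001 to 119000 both had 19.3, 22.3 and 3.37 CPM, with litter 3 lowest by 6.61-fold. The list of 10 closes with chr8_random (75001 to 76000) at 6.39, with 18.3, 12.4 and 2.87 CPM, and chrUn_random (1593001 to 1594000) at 6.17, with 10.7, 3.71 and 22.9 CPM. These ratios rest on 1 library per litter.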

How the data were processed

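RNA of ovulated oocytes was sequenced in 1 library from each of 3 litters. The authors deposited 1 signal track per library, the number of alignments over each base, not scaled to depth. Bowtie and mm9 are named as aligner and build, per the submitters' processing notes. Neither the version nor the number of placements per read is stated there. Lanes were 3, 4 and 8 for litters 1, 2 and 3, per the file headers, so lane and litter cannot be told apart.

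Windows of 1 kb were summed as depth x bases / 72, each alignment being taken as 72 gapless bases, and scaled to 1000000 alignments (CPM). Starts were rebuilt from steps in depth, with 0 negative starts and 0 gaps. A run was 3 neighbouring start positions with at least 50 alignments over the litters. It recurred where its counts in every litter and its spacing occurred again, in either direction. Windows averaging 10 CPM or more, on all sequences, were tested by a chi-square test of Poisson homogeneity with Benjamini-Hochberg adjustment, and called at an adjusted p under 0.05 and a highest-to-lowest ratio of at least 4, with counts under 3 raised to 3. That test covers counting error only, and the labels do not say whether a litter was more than 1 animal. The code was tested on simulated data (Python 3.11.15, numpy 2.4.6, scipy 1.17.1).

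The members and the definition of a run were chosen with earlier results of these data known. Windows named are the 20 highest by mean CPM and the 10 called windows with the highest ratios. Stretches, placed loci and windows whose counts did not recur were described after their values were seen. The annotation at hand is on GRCm38, so no nuclear gene is named and oocyte markers were not analysed here. Alternatives changed the counting, scaling, thresholds and definition of a run, or left out a litter.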

Additional observations from a re-analysis of the deposited data

Results flagged for a closer look

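Signal was also present on the contigs of the sex chromosomes, which the comparisons above leave out, at more than the 3 alignments that a count of 0 allows. chrX_random held 4873, 4480 and 4779 alignments in litters 1, 2 and 3, or 143 ± 5.61 CPM (SD, n = 3). chrY_random held 8397, 8525 and 11213 alignments, or 286 ± 57.7 CPM (SD, n = 3). The oocytes came from females. Whether alignments on either contig recur on other sequences was not tested, so neither count can be assigned to RNA from a sex chromosome.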

How the results depend on the processing

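Dividing each alignment in a run deep enough to test by its number of places lowered the contig level to 4326 CPM. Leaving out positions that recur on placed chromosomes lowered it to 3506 CPM, the share in the 10 highest windows to 22.4% and the varying windows to 12. Both alternatives were chosen after seeing the data. Counting each start once gave 501 windows at 1 CPM in all litters, 12.4% in the 10 highest windows and 7 of 225 windows varying (3.11%, against 6.14% of all windows). The windows numbered 128 at 5 CPM and 757 with at least 1 whole alignment (72 bases of depth) in each litter. The share recurring on placed chromosomes was 68.2% with at least 10 alignments per run and 61.2% with 20, and 62.5% with copies anywhere. At a ratio of 2, 83 windows varied (67.5%, against 54.3% of all windows), and at a ratio of 10, 2 did (1.63%, against 3.00%). With windows averaging 1 CPM let in, 108 varied (26.6%, against 34.8%). Leaving out each litter gave 6168 to 8629 CPM and 44.3% to 53.2% recurring. Without litter 1, 22 of 128 windows varied (17.2%, against 15.1% of all windows). Without litter 2 it was 11 of 135 (8.15%, against 10.8%), and without litter 3 it was 2 of 100 (2%, against 1.08%). Causes of these shifts were not tested. Of 29 levels of single contigs or windows, 20 moved by over 1.5 times on dividing by places, 19 on counting starts once, 18 without recurring positions and 8 without litter 3. The window of rank 1 went to 133 CPM divided by places and to 21.1 CPM without recurring positions, against 678 CPM as reported. None of the 29 moved so far without litter 1 or 2, under either other scaling or by leftmost base. No paired analysis was possible because no other group of samples shares the litters' numbers. Depth limits recurrence, since 26.3% of contig alignments were too shallow to test.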
